A study of Mus musculus with 6 samples.

Results

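Motile cilium and axoneme genes were followed in the retinas of mice labelled Samd7 KO and of wild-type mice. The set holds the 81 genes of the deposited table, of 49997 in all, whose symbols name dynein arm chains (Dnah, Dnaic, Dnal1, Dnali1), dynein assembly factors (Dnaaf), tektins (Tekt), radial spoke proteins (Rsph), nexin-dynein regulatory complex proteins (Drc), cilia and flagella associated proteins (Cfap), sperm associated antigens (Spag) and the central pair protein Hydin. The choice went by symbol, so that some members, such as Spag5 of the mitotic spindle and the signalling scaffold Spag9, are not axoneme parts.

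RNA was sequenced from 6 male retinas, 1 retina per library. The 3 retinas labelled Samd7 KO carried the genotype Samd7 knockout (-10A) and were taken at postnatal day 31. The 3 control retinas were c57Bl6/j wild type, taken at postnatal day 36; age thus differs with genotype, and their parts cannot be told apart. Whether each retina of a group is from its own mouse is not in the labels, so the tests speak only of the spread among these libraries. Samd7 encodes a sterile alpha motif protein of photoreceptors, and the study, by its title, is about its part in keeping photoreceptors to their identity. Values are normalized reads, the read count of a gene divided by 1 size factor per library, and the libraries held 44231112 to 62813549 reads. Samd7 itself had 57837, 45755 and 44932 normalized reads in the retinas labelled Samd7 KO against 6349, 8141 and 8122 in wild type, 6.57-fold higher under the KO label. Read counts over the gene therefore do not show the loss the label names, the labels do not say which bases the allele lacks, and directions below are those of the label. The retina check genes were all present: rod, cone, bipolar and Müller glia markers summed to 2.84e+06 to 3.10e+06 normalized reads under the KO label and 4.38e+06 to 4.78e+06 in wild type. Of those 10 markers, 4 were lower and 0 higher (limma adjusted p under 0.05; 8 at an unadjusted p under 0.05, 5 by edgeR). Lens RNA stood out in wild type 3, with a marker sum of 7521 normalized reads against at most 135 in the other wild-type retinas and 101 to 170 under the KO label.

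A motile cilium beats because dynein arms on its outer doublet microtubules walk along the neighbouring doublet, while radial spokes, the nexin link and the central pair coordinate them. Assembly factors build the arms in the cytoplasm, and tektins line the doublet wall. Retinal neurons are not known to carry beating cilia. A photoreceptor carries a sensory cilium, the connecting cilium, which lacks the central pair, so that most axoneme genes are better known from sperm, airway and ependyma.

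Expression of the set was uneven and mostly low. In RPKM, the read level scaled by the length of the longest annotated transcript and by library depth, which could be computed for 77 members, 25 had a level of at least 1 in wild type and 30 had less than 0.1. The highest wild-type levels were those of Spag7, at 92.3 RPKM, Cfap36, at 58.7 RPKM, Cfap298, a protein known for dynein arm assembly, at 53.1 RPKM, and Cfap20, a microtubule inner protein, at 15.5 RPKM. Large parts known from beating axonemes lay far below: Hydin had 0.0371 RPKM, the outer arm heavy chain Dnah11 0.0271 RPKM and the inner arm heavy chain Dnah7a 0.0174 RPKM. The heavy chains as a whole ran from 0.00108 RPKM for Dnah12 to 0.656 RPKM for Dnah9 in wild type. Tekt3 and Dnaaf6 had 0 reads in all 6 libraries.

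In the retinas labelled Samd7 KO, 2 members were many-fold higher: Tekt4, a tektin needed for normal sperm motility in mice, 29.4-fold, and Dnaic1, an intermediate chain of the outer dynein arm, 10.9-fold. Cfap61 and Rsph3b, both of the radial spoke, were modestly higher, and Dnaic2, the partner of Dnaic1 in the outer arm, was lower together with Cfap206 and Cfap57. These 7 were the called members among 62 that could be tested, 11.3%, against 12% of all 20277 genes tested (limma, adjusted p under 0.05 over all genes). The share of called members was thus near the background. By direction, 4 members rose (6.45%, background 6.79%) and 3 fell (4.84%, background 5.21%). With a change of at least 2-fold there were 2 that rose, Tekt4 and Dnaic1 (background 2.13%), and 2 that fell, Cfap206 and Cfap57 (background 1.12%). The other 55 did not pass, and the median log2 fold change of tested members was -0.12 against 0.002 for all tested genes. Among tested members the libraries labelled KO all lay above wild type for 7 and all below for 17, together 38.7% against a background of 31.1% of genes whose groups did not overlap, and the groups overlapped for 38. Of all called genes 56.6% were higher, and with scaling to total reads 71.2%, when 5 members rose and 3 fell.

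**Figure D1:**
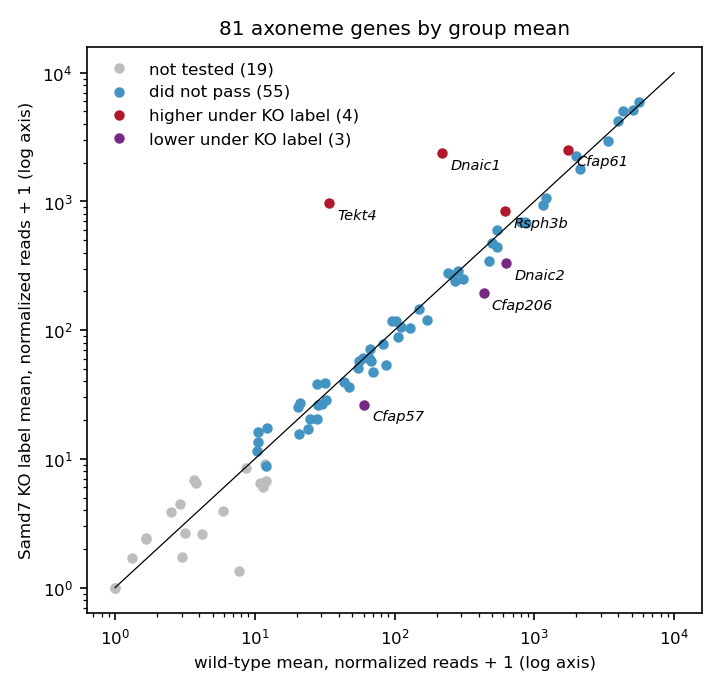
Mean normalized reads plus 1 of the 81 members in wild type (horizontal, log axis) and under the Samd7 KO label (vertical, log axis), with the line of equality; each point is a gene, coloured by the result of the test. Tekt4 and Dnaic1 stand far above the line, and 3 members that fell lie below it.

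Tekt4 was the member that rose from near zero. It lies on chromosome 17, 25454549 to 25476602 (GRCm38, plus strand). Its normalized reads were 951, 1026 and 941 in the retinas labelled Samd7 KO and 29.1, 40.0 and 30.1 in wild type. Each of the 3 KO-label values lay far above all wild-type values, with no overlap. The means were 973 ± 46.6 and 33.1 ± 6.05 (SD, n = 3 each), a log2 fold change of 4.85 (SE 0.16, limma adjusted p = 2.25e-09). Per length, Tekt4 moved from 0.411 to 12.6 RPKM, from rank 37 to rank 7 of the 77 members with a known transcript length.

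Near zero was taken as a wild-type mean under 1 CPM (a read count scaled to the depth of its library), which was 49.9 to 53.7 normalized reads depending on the library. Of the 81 members, 38 were near zero in wild type, and 1 of these, Tekt4, reached 1 CPM in every library labelled KO (2.63%). Among all 34333 genes near zero in wild type, 0.565% did so. The other 37 near-zero members stayed low, with mean levels under the KO label of at most 38.7 normalized reads (Cfap157). With near zero set at a wild-type mean under 10 normalized reads, 19 members qualified and 0 of them rose to 1 CPM, against 0.04% of all genes under that limit.

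None of the other 3 tested tektins passed by limma (0 at an unadjusted p under 0.05, 0 by edgeR and 0 by DESeq2). Of all tested genes 12% were called by limma. Tekt1 had 104, 108 and 99.1 normalized reads under the KO label and 129, 112 and 141 in wild type (log2 fold change -0.29, SE 0.17, limma adjusted p = 0.298). Tekt5 had a log2 fold change of -0.13 (SE 0.21, limma adjusted p = 0.741) and Tekt2 one of -0.25 (SE 0.36, limma adjusted p = 0.714). The groups overlapped for Tekt5 and Tekt2, while Tekt1 was lower in each library labelled KO. A p that misses the threshold does not show that the groups were equal.

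Dnaic1, whose human counterpart is mutated in primary ciliary dyskinesia, was low but not near zero in wild type. It lies on chromosome 4, 41569647 to 41638158 (plus strand). Its normalized reads were 2549, 2295 and 2292 under the KO label and 209.6, 186 and 259 in wild type. Every KO-label library lay far above every wild-type library. The means were 2379 ± 148 and 218 ± 37.1 (SD, n = 3 each) and the log2 fold change 3.45 (SE 0.13, limma adjusted p = 5.31e-09). Its level rose from 1.66 to 18.8 RPKM, from rank 22 to rank 4 of the set. Over leaving out each library in turn, the ratio of means stayed between 10.16 and 12.02 for Dnaic1 and between 27.7 and 32.9 for Tekt4.

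Dnaic2, the other intermediate chain of the outer arm, went the opposite way. It lies on chromosome 11, 114721341 to 114757889. Its normalized reads were 278, 336 and 373 under the KO label and 616, 618 and 659.8 in wild type, with no overlap. It was 1.92-fold lower (log2 fold change -0.95, SE 0.13, limma adjusted p = 4.35e-04). The light chains Dnal1 (limma adjusted p = 0.0652, log2 fold change -0.35, SE 0.11) and Dnali1 (0.78, SE 0.57, limma adjusted p = 0.419) did not pass; Dnal1 passed with DESeq2 (adjusted p = 0.0306).

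**Figure D2:**
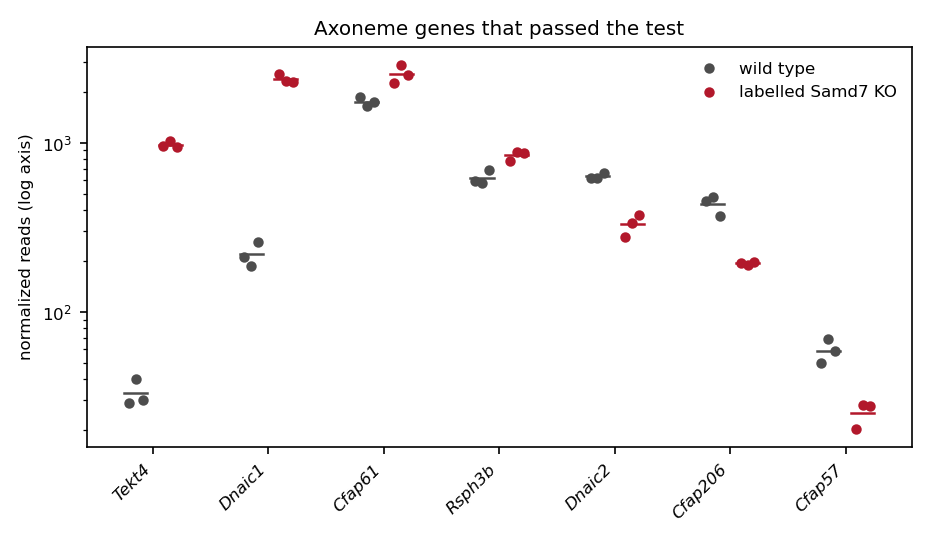
Normalized reads (log axis) of the 7 members that passed the test, with a point for each library and a line at each group mean; grey is wild type and red is the Samd7 KO label, n = 3 each. The groups do not overlap for any of the 7 genes, and the gaps of Tekt4 and Dnaic1 are the widest.

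The sequence around an annotated start of each of the 2 large risers and of Dnaic2 is shown because all hold the same kind of element, an X-box. Proteins of the RFX family, known activators of ciliary genes, bind X-boxes. Searched on both strands was GTTGC followed, after any 3 bases, by GNAAC, a pattern set after these promoters had been read, in RefSeq windows (GRCm38.p6) from 250 bases before to 50 after a gene's start. Capitals mark the match. The windows are chr17:25471340-25471639 for Tekt4, chr4:41569544-41569843 for Dnaic1 and chr11:114727169-114727468 for Dnaic2, all on the plus strand. The starts used for Tekt4 and Dnaic2 are internal, 17 kb and 6.08 kb inside the gene spans given above, and that of Dnaic1 lies 0.147 kb inside.
Tekt4: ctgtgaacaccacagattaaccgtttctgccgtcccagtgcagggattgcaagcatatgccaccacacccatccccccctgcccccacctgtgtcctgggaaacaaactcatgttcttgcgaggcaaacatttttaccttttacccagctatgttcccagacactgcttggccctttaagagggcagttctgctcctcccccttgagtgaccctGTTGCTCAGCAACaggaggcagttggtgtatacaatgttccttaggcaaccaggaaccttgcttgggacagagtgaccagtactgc
Dnaic1: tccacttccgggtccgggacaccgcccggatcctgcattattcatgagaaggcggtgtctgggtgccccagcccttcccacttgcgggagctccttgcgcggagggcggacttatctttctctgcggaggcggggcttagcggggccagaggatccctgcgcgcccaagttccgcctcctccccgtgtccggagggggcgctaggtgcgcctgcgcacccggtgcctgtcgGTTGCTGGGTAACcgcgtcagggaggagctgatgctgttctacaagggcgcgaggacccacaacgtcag
Dnaic2: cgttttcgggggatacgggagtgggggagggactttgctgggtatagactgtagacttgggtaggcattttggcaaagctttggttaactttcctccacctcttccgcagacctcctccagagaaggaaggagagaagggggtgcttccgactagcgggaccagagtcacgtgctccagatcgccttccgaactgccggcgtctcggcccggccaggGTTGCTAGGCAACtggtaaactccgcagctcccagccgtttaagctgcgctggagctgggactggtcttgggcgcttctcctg

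The match was GTTGCTCAGCAAC for Tekt4, starting 36 bases before the gene's start, GTTGCTGGGTAAC for Dnaic1 (19 bases before) and GTTGCTAGGCAAC for Dnaic2 (33 bases before). Rsph3b, described below, held GTTGCTCGGCAAC, while the windows of Cfap206, Cfap57 and Cfap61 held no match. Of the 69 members with a window, 11 had a match (15.9%), against 0.788% of all 27025 genes with a window. The 11 include Dnah7a, Dnah7b and Dnah7c, near-identical copies that are counted as separate genes. Because the pattern was set after the promoters shown above had been read, these shares are a description and not a test of an excess. Of the 11 members with a match, 3 were higher, 1 was lower and 7 did not pass, with a median log2 fold change of -0.17. Among all tested members 11.3% were called, and among all tested genes 12%. The called genes with a match include those whose promoters were read to set the pattern. Whether the element has a part in these changes was not tested. The sequence TAATCC, bound by homeodomain factors of photoreceptors such as Crx, was found on either strand in 3 of the 69 windows (4.35%) and in 8.14% of genes with a window; those of the 7 called members held none. A match in a window is a description of the letters and not of binding.

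The heavy chains, the motors of the arms, showed no call by limma, beside 12% of all tested genes called. Of the heavy chains, 4 of 5 in the outer arm and 8 of 10 in the inner arm had enough reads for a test. At an unadjusted p under 0.05 there was 1 outer arm chain and 0 inner arm chains; edgeR called 0 of both, and DESeq2 called 1 outer arm chain. That chain was Dnah9, with 288, 369 and 371 normalized reads under the KO label and 561, 416 and 452 in wild type (log2 fold change -0.47, SE 0.15, limma adjusted p = 0.0631). Dnah7a, Dnah7b and Dnah7c are near-identical copies, and reads may be split between them. Of these, Dnah7b had the most reads, 242 ± 34.7 (SD, n = 3) under the KO label and 269.5 ± 17.8 in wild type, and did not pass (limma adjusted p = 0.504). Of 6 assembly factors 5 were tested and 0 called by limma (2 at an unadjusted p under 0.05, 0 by edgeR and 0 by DESeq2), with log2 fold changes from -0.72 for Dnaaf1 to -0.02 for Dnaaf3. Dnaaf1 passed when KO 3 was left out (limma adjusted p = 0.0479).

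Among radial spoke proteins 1 of 3 tested rose, beside a background of 6.79% of all tested genes. Rsph3b (chromosome 17, 6904716 to 6948356) had 779, 881 and 869 normalized reads under the KO label and 589.5, 580.1 and 687 in wild type. It was 1.36-fold higher (limma adjusted p = 0.0197; log2 fold change 0.45, SE 0.11). It no longer passed with a replicate block (adjusted p = 0.0508) or when KO 3, wild type 1 or wild type 2 was left out (adjusted p = 0.086, 0.0574 and 0.0878), and its adjusted p ran from 0.00265 to 0.0878 over the alternatives. Rsph3a is a near-identical copy of Rsph3b, so that reads could be split between them, and had a log2 fold change of 0.15 (SE 0.10, limma adjusted p = 0.383). The spoke head genes Rsph1, Rsph4a and Rsph6a, known from motile cilia and sperm, had too few reads for a test. Rsph9, the remaining tested radial spoke gene, was not that low. It had 277 ± 26.3 normalized reads under the KO label and 239 ± 22.6 in wild type (SD, n = 3 each) and did not pass (log2 fold change 0.21, SE 0.14, limma adjusted p = 0.357). Both tested nexin link members, Drc1 and Drc3, did not pass (limma adjusted p = 0.94 and 0.156). Hydin, of the central pair, had 37.8 ± 9.74 normalized reads under the KO label and 30.8 ± 7.96 in wild type (SD, n = 3 each, limma adjusted p = 0.588).

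Among the 24 tested Cfap genes 1 rose and 2 fell, while of all tested genes 6.79% rose and 5.21% fell. Cfap61, a part of the complex at the base of the radial spokes (chromosome 2, 145934757 to 146215035), had 2234, 2864 and 2491 normalized reads under the KO label and 1855, 1642 and 1743 in wild type. It was already well expressed and was 1.45-fold higher, with no overlap (log2 fold change 0.53, SE 0.10, limma adjusted p = 0.00498). Cfap206, an axonemal protein at the base of a radial spoke (chromosome 4, 34688574 to 34730263), had 194, 189 and 197 normalized reads against 453, 475 and 369. It was 2.24-fold lower, again with no overlap (log2 fold change -1.15, SE 0.13, limma adjusted p = 1.40e-04). Cfap57, linked to the inner dynein arm (chromosome 4, 118554550 to 118620819), had 20.3, 28.0 and 27.9 normalized reads against 49.6, 69.3 and 58.4. It was 2.33-fold lower (log2 fold change -1.19, SE 0.26, limma adjusted p = 0.0101). When wild type 2 was left out it no longer passed (adjusted p = 0.0548), and its adjusted p ran from 0.00488 to 0.0548 over the alternatives. Its span overlaps that of Gm52677 by 15814 bases (0.697 normalized reads under the KO label and 2.67 in wild type) and that of Ebna1bp2 by 21 bases. The best expressed Cfap genes did not pass, among them Cfap36 with a log2 fold change of 0.02 (SE 0.07), Cfap298 with 0.08 (SE 0.07) and Cfap20 with -0.21 (SE 0.07, limma adjusted p = 0.0847).

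The 7 tested Spag genes gave 0 calls by limma, beside 12% of all tested genes called. Of the 7, 1 had an unadjusted p under 0.05, with 0 called by edgeR and 0 by DESeq2. The one nearest the threshold was Spag9 (log2 fold change 0.23, SE 0.09, limma adjusted p = 0.114), which passed with scaling to total reads (adjusted p = 0.0426) and had values between 0.0381 and 0.28 over the alternatives. The central pair genes Spag16 and Spag17 were too low for a test, with 16 and 5 reads under the KO label and 9 and 10 in wild type.

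**Figure D3:**
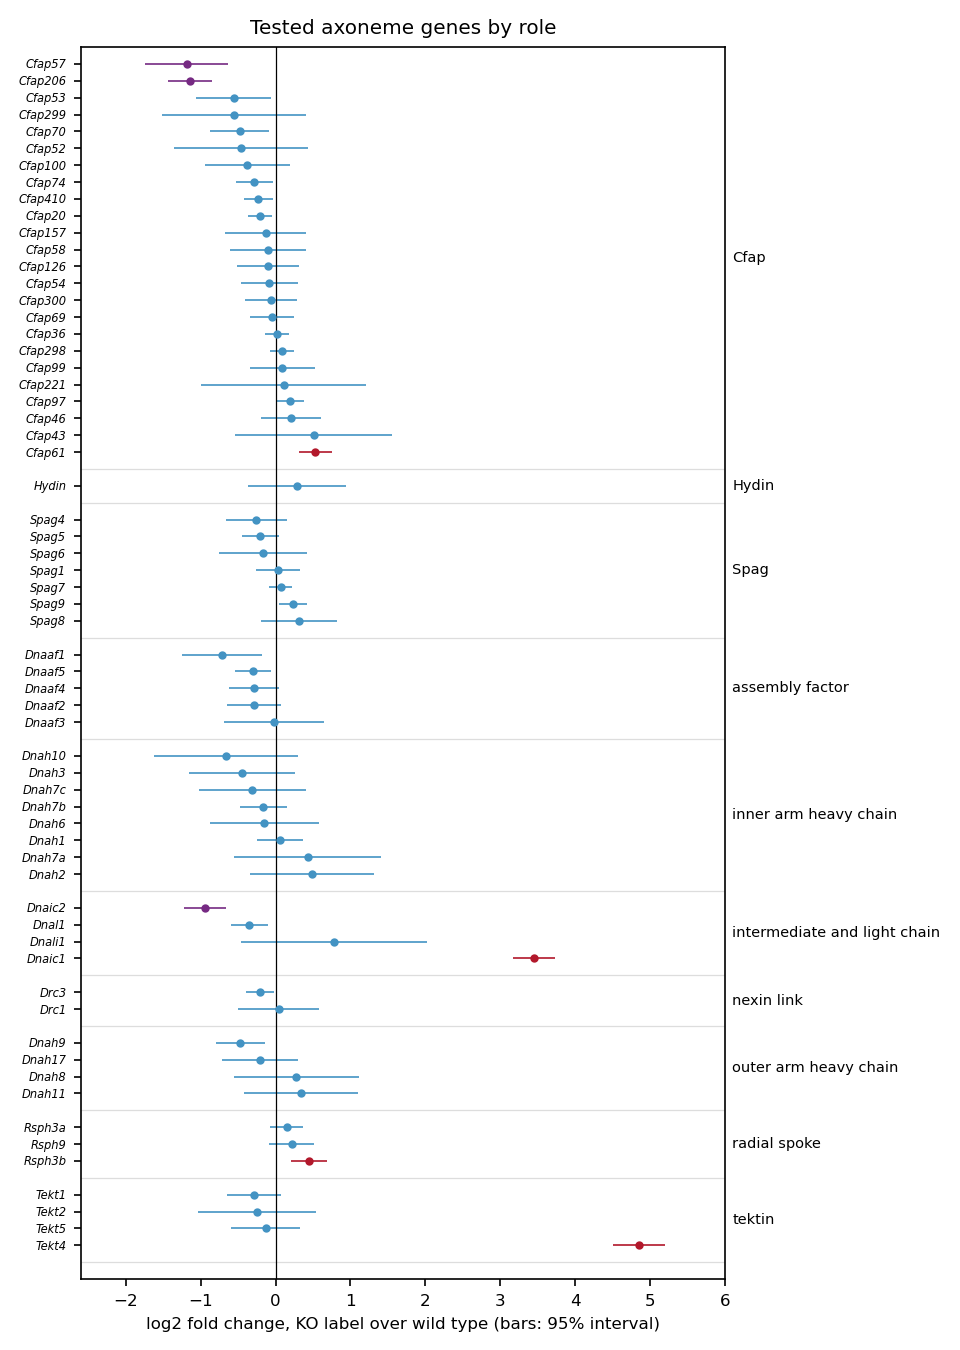
Log2 fold change (horizontal) of the 62 tested members, grouped by role, with 95% intervals from limma; red is higher and purple lower under the Samd7 KO label at an adjusted p under 0.05, and blue did not pass. Most intervals reach 0, while Tekt4 at 4.85 and Dnaic1 at 3.45 stand apart from every other member of their role groups.

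The 19 members too low for a test had at most 58 reads summed over the 6 libraries. Their read ratios carry wide counting intervals, which cover counting error only and not the spread between retinas. The interval left out equality for 3 of them, Cfap77, Cfap44 and Cfap47, all lower under the KO label. Cfap77, a microtubule inner protein, had 0, 1 and 0 reads under the KO label and 6, 7 and 8 in wild type, so that the ratio was 0.052, with an exact binomial 95% interval of 0.00126 to 0.323. These 3 genes were picked after their values were seen. Without a filter on low values Cfap77 was called lower (limma adjusted p = 0.00703).

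Neighbours of the 2 large risers were compared within 60 kb. Cacna1h, a T-type calcium channel subunit, lies 18.2 kb from the Tekt4 span on the minus strand and had 47279 ± 4453 normalized reads under the KO label (SD, n = 3) and 3048 ± 353 in wild type, a 15.5-fold higher level (limma adjusted p = 1.42e-10). The genes point away from each other, and the Tekt4 start used for the promoter is 35.3 kb from the Cacna1h start. On the other side Sstr5 had 15.6 against 23.8 normalized reads and did not pass (limma adjusted p = 0.293), nor did Gm33727 (limma adjusted p = 0.75). Around Dnaic1, 3 of 5 tested neighbours rose. Of all tested genes 6.79% were higher, and the neighbour counts here and below are a description, not a test of an excess. Enho, which shares 15 bases with the end of Dnaic1 on the opposite strand, was 1.92-fold higher (limma adjusted p = 2.25e-06). Fam219a, whose span lies 0.04 kb from that of Dnaic1 in head-to-head order, was 1.55-fold higher (limma adjusted p = 8.45e-04). The noncoding Gm12405 was 6.89-fold higher, at 119 against 17.3 normalized reads (limma adjusted p = 1.73e-04). The cDNA kit named in the labels does not mark strand, so that reads from overlapping genes cannot be told apart. Beside the other called members, 1 of 7 tested neighbours of Cfap61 rose (Insm1, 2.41-fold), 1 of 4 of Dnaic2 (Ttyh2, 1.71-fold, against the direction of Dnaic2) and 1 of 2 of Rsph3b (Rnaset2b, 1.98-fold). Neighbours of Cfap206 (3 tested) and Cfap57 (2 tested) all had limma adjusted p-values of 0.106 or more.

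**Figure D4:**
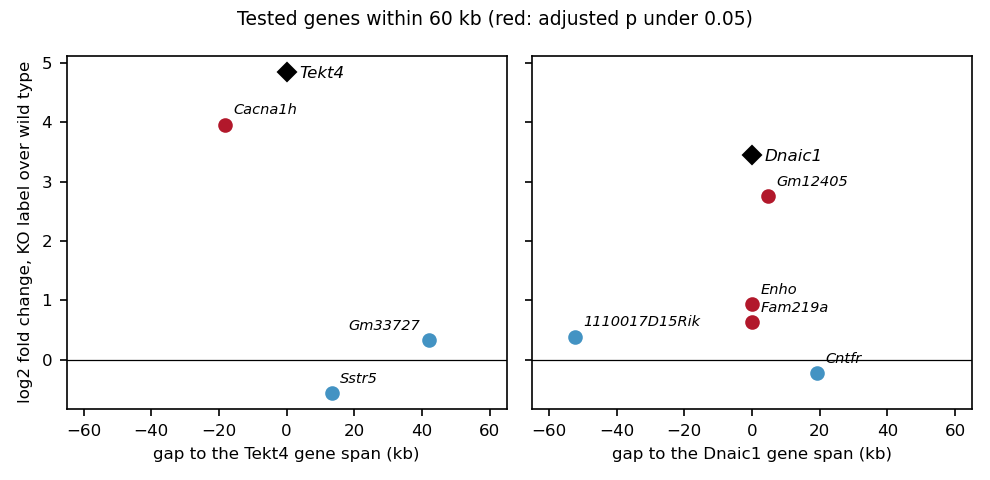
Log2 fold change (vertical) of tested genes within 60 kb of Tekt4 (left) and Dnaic1 (right), by the gap in kb between gene spans (horizontal, negative towards lower coordinates); the black diamond is the member, red passed at an adjusted p under 0.05 and blue did not. Cacna1h is the neighbour of Tekt4 that rose, and Enho, Fam219a and Gm12405 rose beside Dnaic1.

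Other genes of the motile cilium pathway, outside the symbol rule, were mostly lower where they moved. The table held 51 of them, and tests were possible for 39: 2 rose (5.13%, background 6.79%) and 9 fell (23.1%, background 5.21%), with a median log2 fold change of -0.09. The list was chosen with earlier results of these data known, so its shares describe the list and cannot show an excess. The calls fell to 6 without wild type 2 and to 7 without wild type 3. Among the genes of the radial spoke, central pair and doublet interior, 5 of 14 fell and 0 rose by limma (8 at an unadjusted p under 0.05 in either direction, 5 called by edgeR). Spef1, a protein that bundles central pair microtubules, had 349, 309 and 356 normalized reads under the KO label and 704, 832 and 730 in wild type (2.24-fold lower, limma adjusted p = 3.73e-05). Meig1, needed for mouse sperm formation, had 226, 178 and 171 against 346, 395 and 425 (2.03-fold lower, limma adjusted p = 7.23e-04). Both groups were clearly apart in these genes. Enkur, a microtubule inner protein, had 38.4, 55.0 and 48.1 against 111, 133 and 149.7 (2.79-fold lower, limma adjusted p = 6.27e-04).

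Of the dynein arm partners, Dynlrb2, a light chain, was 1.88-fold lower (limma adjusted p = 0.0122). It no longer passed when wild type 2 (adjusted p = 0.0506) or wild type 3 (adjusted p = 0.0795) was left out, and its adjusted p ran from 0.00205 to 0.0795. Wdr63, an inner arm intermediate chain, was 2.41-fold lower (limma adjusted p = 0.0364), and did not pass with no filter, with limma-voom or with KO 1, KO 2, wild type 2 or wild type 3 left out (adjusted p between 0.00509 and 0.167 over the alternatives). Ccdc151, an outer arm docking protein, was 1.71-fold higher (limma adjusted p = 0.00847). It did not pass when KO 3 was left out (adjusted p = 0.0506, the highest of a range that began at 2.06e-04). Among control genes 1 of 5 tested passed (12% of all tested genes did), Rfx2, an RFX family transcription factor. Its normalized reads were 1065, 857 and 1248 under the KO label and 447, 431 and 350 in wild type, 2.58-fold higher with no overlap (limma adjusted p = 7.26e-05). The related Rfx1 (log2 fold change -0.19, SE 0.10) and Rfx3 (0.06, SE 0.12) did not pass. Mcidas, a switch of multiciliated cell fate, stayed at 4.81 to 9.41 normalized reads in all libraries.

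**Figure D5:**
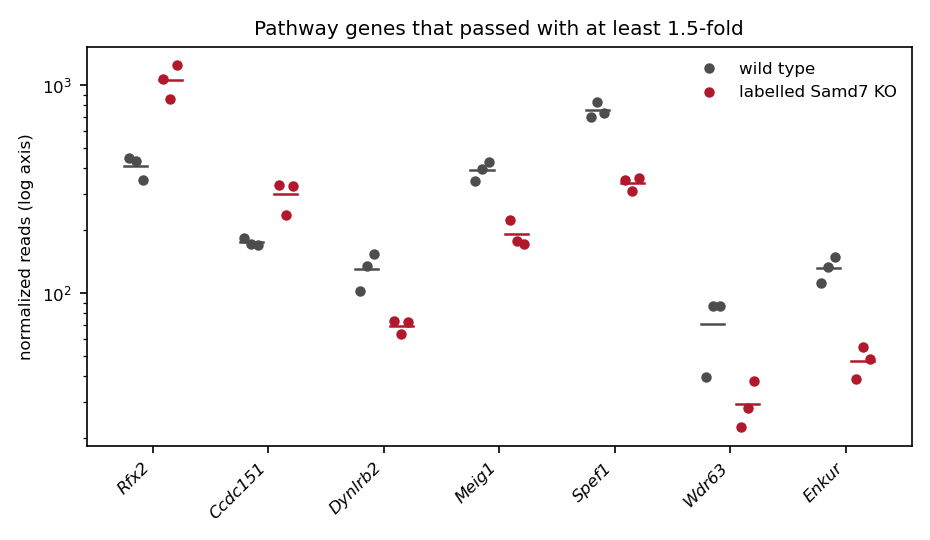
Normalized reads (log axis) of the 7 pathway genes outside the symbol rule that passed the test with a change of at least 1.5-fold, with a point for each library and a line at each group mean; grey is wild type and red the Samd7 KO label, n = 3 each. Rfx2 and Ccdc151 lie higher under the label and the other 5 lower.

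Markers of cells that carry motile cilia gave little signal. Of 12 markers of multiciliated and ependymal cells, 8 including Tmem212 and Sntn (0 reads in all libraries) stayed under 1 CPM everywhere. Their summed level, most of it Tppp3, was 8368 to 9462 normalized reads under the KO label and 9718 to 9817 in wild type, and of 7 tested 0 rose and 1 fell by limma, the light chain Dynlrb2 (1 at an unadjusted p under 0.05, 1 by edgeR). Of 12 male germ cell markers 10 stayed under 1 CPM everywhere, and the summed level was 773 to 869 against 830 to 981. Of the 3 tested 0 were called by limma, 0 at an unadjusted p under 0.05 and 0 by edgeR. Pigment epithelium markers were lower in 9 of 12 tested. Most of that list's summed level, 10258 to 12372 against 12069 to 14861 normalized reads, was Trpm1, which ON bipolar cells also express and which had 8234 to 11053 under the KO label and 7671 to 8308 in wild type. Without Trpm1, left out after its values were seen, the list summed to 1319 to 2418 under the KO label and 4082 to 6553 in wild type, 2.98-fold lower with no overlap. Microglia markers were higher in 8 of 10, with summed levels of 6839 to 7577 against 4648 to 5152. The part of these cells in the changes of Cfap206, Cfap57, Dnaic2 and the pathway genes was not tested. In bulk retina, fewer cells of a type and less RNA per cell cannot be told apart.

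In the authors' deposited table, 9 of the 58 members with an adjusted p passed against no change, 4 higher and 5 lower; the 7 genes above were joined by Dnah9 (adjusted p = 0.0251) and Dnal1 (adjusted p = 0.0336). Against a log2 fold change of 1 the authors' deposited table passed 2 members, Tekt4 (adjusted p = 3.2e-91) and Dnaic1 (adjusted p = 6.52e-79).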

How the data were processed

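Polyadenylated RNA from 6 mouse retinas, 1 retina per library, had been made into cDNA libraries with 15 cycles of PCR and no molecular identifiers, per the labels' protocols. The submitters' processing notes name DRAGEN, cutadapt 3.0, STAR 2.7.3a, HTSeq 0.12.4, SAMtools 1.9, DESeq2 and the builds GRCm38 and mm10. The authors deposited a table of 49997 genes with a signal per library (a read count divided by a size factor), and with their own log2 fold changes, p-values and a score per gene (the Wald statistic, not used here), per the file headers. Dividing by the smallest step gave back whole reads for 100% of values within 0.01, 44231112 to 62813549 per library. Counting intervals cover counting error only.

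Members were found by gene symbol. The members and the gene lists were chosen with earlier results of these data known, and the X-box pattern after the promoter sequences had been read. Genes that reached 10 normalized reads in 3 or more libraries were tested with limma 3.58.1 (R 4.3.3) on log2(value + 1), with a mean-variance trend and Benjamini-Hochberg adjustment over all 20277 genes tested. Fold changes on that scale understate changes of low genes, and ratios in the text are of group means. Members were named if they passed, or if they were the best expressed of each role; pathway genes if they passed with at least 1.5-fold, and other genes named for context were chosen after their values were seen. Alternatives were edgeR 4.0.16, DESeq2 1.42.0 and limma-voom on recovered reads, other pseudocounts, filters, scaling and threshold, a replicate block and each library left out. Levels per length used the longest transcript of each gene. Replicates of a group differed by more than sampling noise, with chi-square values of 7.19 to 33.2 times their degrees of freedom. The statistical scripts were tested on simulated data. The values of 1 pathway gene are not reported here, though it is in the counts.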

Additional observations from a re-analysis of the deposited data

How the results depend on the processing

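The number of members called was 7, with 7 by edgeR and 9 by DESeq2 (4 higher and 5 lower). Leaving out each library in turn gave 5 to 9 members called, 3 to 5 higher and 2 to 4 lower. Pathway genes outside the symbol rule gave 11 calls, 6 at an adjusted p under 0.01, and 6 to 10 with a library left out. Over all genes 2432 calls became 1189 at an adjusted p under 0.01 and ranged from 1313 without wild type 3 to 3247 without KO 1; without KO 3 there were 1497 and without wild type 2 there were 1470. The share of calls that were higher was 56.6%, between 56.3% and 61.2% with a library left out, and 71.2% with scaling to total reads, which shifted the median of all genes by 0.06 on the log2 scale and gave 8 members, 5 higher and 3 lower. The members near zero in wild type numbered 38, or 38 to 39 with a library left out, of which 1 rose in each case; with a limit of 10 normalized reads they were 19 and 0. Deviations of same-numbered libraries showed no positive correlation (-0.212 to -0.0549 over 3 pairs). Such values cannot show whether the samples were handled in pairs. A replicate block gave 6 members, 8 pathway genes and 1624 genes in all. Over 687 refits of 43 named genes, 662 kept their side of the threshold, 18 lost a call, 7 gained one and 0 changed direction after a call. The cause was not tested. Members with few reads are limited by depth: 19 had too few for a test.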
